A study of Mus musculus with 16 samples.

Results

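The genes described here are 8 genes in which mutations cause familial amyotrophic lateral sclerosis (ALS), a disease in which motoneurons degenerate. They are *Sod1*, *Tardbp*, *Vcp*, *Optn*, *Sqstm1*, *Tbk1*, *Matr3* and *Ubqln2*, chosen by symbol from the 46320 genes of the deposited count data. All 8 were among the 19964 genes that passed the filter on low expression. The data are RNA-seq libraries of primary mouse motoneurons from the lumbar spinal cord at embryonic day 13, enriched by panning with an antibody against p75NTR. The neurons were plated on one side of a microfluidic chamber and sent their axons through to the other, with CNTF (5 ng/ml) on both sides and BDNF (20 ng/ml) on the axonal side only. The 4 groups of 4 libraries are somatodendritic and axonal RNA from +/+ (labeled WT) and from Hnrnpr-/- motoneurons, which lack hnRNP R, an RNA-binding protein. No agent other than these growth factors is named for either genotype. The study's text calls the libraries of a group biological replicates, but the labels do not tie a replicate number to an animal or culture, so that p values measure the spread between these libraries.

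The proteins of these genes fall into 4 kinds. SOD1 is the cytosolic enzyme that removes superoxide. TDP-43, encoded by *Tardbp*, and matrin-3, encoded by *Matr3*, are mainly nuclear RNA-binding proteins, and TDP-43 forms cytoplasmic inclusions in the motoneurons of most ALS patients. VCP is an ATPase that pulls ubiquitinated proteins out of complexes and membranes, and ubiquilin-2, encoded by *Ubqln2*, is a shuttle that brings such proteins to the proteasome. p62, encoded by *Sqstm1*, and optineurin, encoded by *Optn*, are receptors that link ubiquitinated cargo to autophagosomes, and TBK1 is a kinase that phosphorylates both.

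Total counts per library ranged from 22024923 to 34864151, and the members were covered by 271 (*Sod1*) to 33794 (*Sqstm1*) counts in any library. *Hnrnpr* had 120 to 422 counts per 1e+06 counts (CPM) in the 8 +/+ libraries and 0.545 to 1.16 CPM in the 8 Hnrnpr-/- libraries. The 7 pan-neuronal markers summed to 5457 to 8178 CPM in the somatodendritic and 430 to 4837 CPM in the axonal libraries. Of 8 motoneuron markers, *Mnx1* was at 0 in every somatodendritic and every +/+ axonal library, *Isl2* did not exceed 0.642 CPM in any library, and *Chat* reached 0.899 ± 0.291 CPM (SD, n = 4) in +/+ somatodendritic libraries, so that the labeled cell type rests on *Slc18a3*, *Slc5a7*, *Isl1*, *Ngfr* and *Prph*, none of which averaged more than 8.05 CPM there. The 9 markers of astrocytes or radial glia summed to 1453 to 2755 CPM in somatodendritic and 2425 to 5759 CPM in axonal libraries. In +/+ axonal replicate 2, 5 nuclear RNAs summed to 2399 CPM, against 511 to 1223 CPM in the other axonal libraries of both genotypes. Most of this sum came from *Malat1* and *Neat1*, as *Meg3*, *Rian* and *Mirg* reached at most 227, 42.1 and 1.88 CPM in +/+ axons. Between +/+ compartments, 2 of the 5 RNAs were higher and 2 were lower in axons. With 22700 genes, +/+ axonal replicate 2 also had the fewest genes detected. Results that rest on this library are given with and without it.

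Since a read that aligns at several places was divided among them in the deposited counts, the coding sequence of each member was first compared with the genome (GRCm39). *Vcp* spans bases 42979964 to 43000507 of chromosome 4 (minus strand). Its coding sequence of 2418 bases in 17 exons was found a second time, without introns, within *Vcp-rs*, a pseudogene at bases 103388874 to 103392111 of chromosome X (minus strand), with 99.0% identity, 8 mismatched bases and gaps over 15. Of the 2319 windows of 100 bases in the *Vcp* coding sequence, 1653 or 71.3% occur letter for letter in *Vcp-rs*. The first 100 coding bases are shown because they are the same in the gene and its copy, so that a read of this length within them could not be assigned to either. They are printed 5′ to 3′ in lower case, without a difference to mark.
Vcp: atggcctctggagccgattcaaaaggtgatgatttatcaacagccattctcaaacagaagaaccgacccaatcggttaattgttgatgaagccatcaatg
Vcp-rs: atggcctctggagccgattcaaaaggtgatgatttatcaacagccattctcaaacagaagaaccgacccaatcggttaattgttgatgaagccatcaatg

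*Sod1*, at bases 90017650 to 90023221 of chromosome 16 (plus strand), has a copy of its 462 coding bases in *Gm8566*, a pseudogene on chromosome 6 from 67182507 to 67183178, with 97.8% identity. Here, 23 of 363 windows of 100 bases (6.34%) are identical.

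The copies took unequal shares of the deposited counts. *Vcp-rs* held between 18.6% and 19.5% of the summed counts of *Vcp* and *Vcp-rs* in each of the 16 libraries. *Gm8566* held 2.64% to 7.19% of its sum with *Sod1*, and *Gm13886*, a copy of *Tardbp* on chromosome 2 with 94.0% identity and no identical window of 100 bases, held at most 0.406%. *Matr3*, on chromosome 18 from 35695211 to 35725098, had 2 partial matches on chromosome 8 of 548 and 207 bases, and *Gm33715* at the longer one was at or near 0 in every group. The coding sequences of *Optn*, *Sqstm1*, *Tbk1* and *Ubqln2* matched nowhere else at 90% identity over 100 bases. In GRCm39, *Optn* occupies bases 5023902 to 5069210 of chromosome 2, *Sqstm1* 50090979 to 50105303 of chromosome 11, *Tbk1* 121382360 to 121422699 of chromosome 10 and *Tardbp* 148696839 to 148711672 of chromosome 4, all on the minus strand. Adding the counts of the pseudogenes to those of *Vcp*, *Sod1* and *Tardbp* changed no call of a member. *Ubqln2*, on chromosome X from 152281228 to 152284558, is the only member with a single exon.

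**Figure D1:**
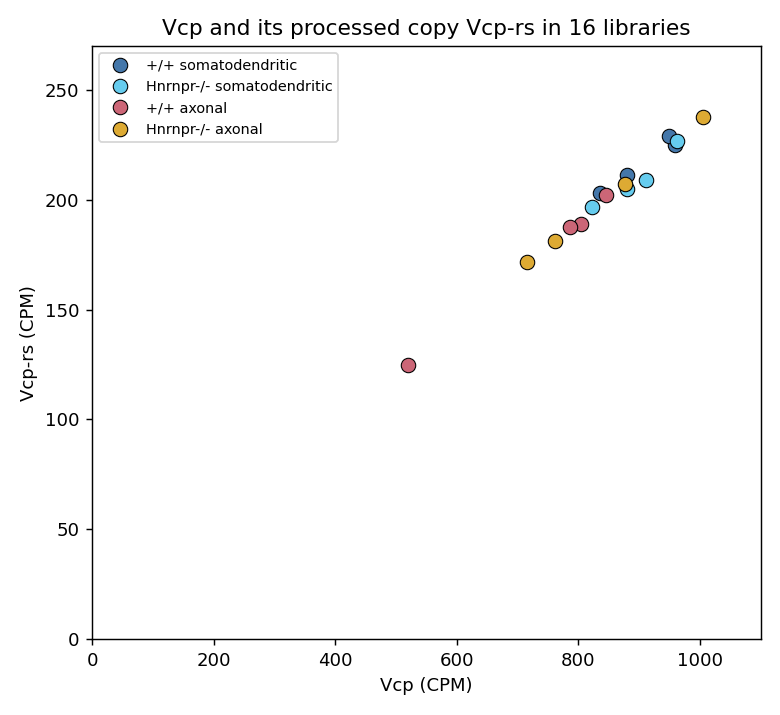
Level of Vcp (x axis, CPM) against that of its copy Vcp-rs (y axis, CPM), with a point for each of the 16 libraries, colored by group. The points lie along a line through the origin, as Vcp-rs held 18.6% to 19.5% of the summed counts in each library, and the lowest point is +/+ axonal replicate 2 (519 CPM of Vcp).

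A pair of members share their locus with a gene on the opposite strand. Exons of *Scaf4* cover 302 of the 637 exon bases of *Sod1* (47.4%), and exons of *Masp2* cover 2308 of 7491 exon bases of *Tardbp* (30.8%). The reads were counted as reversely stranded, but the cDNA kit is not one that preserves strand, and the strand of the reads could not be checked from the counts. Without strand, reads from these overlaps cannot be told apart between the partners. In +/+ motoneurons, *Scaf4* had 68.4 ± 5.66 CPM somatodendritic and 58.8 ± 5.05 CPM axonal RNA (SD, n = 4), with a log2 fold change of -0.22 (adjusted p = 0.222 from edgeR) between them, where *Sod1* rose. *Masp2* averaged at most 4.10 CPM in a group.

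Per kilobase of exon, the only scale used here to compare genes, the members spanned a wide range. In +/+ somatodendritic libraries *Vcp* had 273 ± 17.7 CPM per kilobase (SD, n = 4), followed by *Matr3* with 146 ± 12.2 and *Sqstm1* with 128 ± 9.58. The ranges of the last 2 overlapped. *Sod1* followed at 30.0 ± 6.31 CPM per kilobase, *Ubqln2* at 19.4 ± 2.21 and *Tbk1* at 14.8 ± 0.621, each separate from its neighbors in this order. *Tardbp* at 11.1 ± 0.784 and *Optn* at 10.1 ± 1.31 CPM per kilobase overlapped. The value for *Vcp* does not include the reads assigned to its copy.

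The order was different in axons. In +/+ axonal libraries, *Vcp* again had the highest mean (223 ± 44.9 CPM per kilobase), but *Sqstm1* (116 ± 31.4) lay above *Matr3* (64.0 ± 34.7), and the ranges of both pairs of neighbors overlapped. Both overlaps came from +/+ axonal replicate 2, and in the other 3 libraries the genes ranged from 237 to 255, from 105 to 160 and from 28.1 to 62.9 CPM per kilobase, with no overlap between neighbors. In Hnrnpr-/- axonal libraries the same 3 genes had 253 ± 38.97, 131 ± 39.03 and 49.6 ± 16.1 CPM per kilobase, with no overlap between neighbors. *Tardbp* lay above *Tbk1* and *Ubqln2* in the axons of both genotypes, with 15.7 ± 3.02 CPM per kilobase in +/+ axons, but its range overlapped that of *Tbk1* in both and, through replicate 2 alone, that of *Ubqln2* in +/+ axons. *Ubqln2* held the fifth place in the somatodendritic compartment of both genotypes and the last place in Hnrnpr-/- axons, at 3.80 ± 0.705 CPM per kilobase. In +/+ axons it had 8.93 ± 9.68 CPM per kilobase and stood above *Optn*, and without replicate 2 it had 4.11 ± 0.911 (SD, n = 3) and was last there too.

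To ask how the members are distributed along the neuron, axonal libraries were compared with somatodendritic libraries in each genotype, using edgeR's quasi-likelihood test with adjustment over all genes tested. Here, CPM are scaled by library size and TMM factors. In +/+ motoneurons, *Sod1* and *Tardbp* were higher in axons, *Optn* and *Matr3* were lower, and *Vcp*, *Sqstm1*, *Tbk1* and *Ubqln2* did not pass an adjusted p of 0.05. Of all genes tested, 57.5% passed, 30.1% higher and 27.4% lower in axons, so that 4 of 8 members is a share near the background. The median log2 fold change was -0.26 for the members and 0.07 for all genes. In Hnrnpr-/- motoneurons, 1 member was higher (*Sod1*) and 3 were lower (*Optn*, *Matr3* and *Ubqln2*), where 54.2% of all genes passed, 27.5% higher and 26.8% lower. The axonal libraries were made from full reaction volumes with more PCR cycles than the somatodendritic ones, which cannot be told apart from the compartment, nor can fewer cells of a type from less RNA per cell. The lower neuronal and higher glial marker sums in axonal libraries move with this comparison as well, and their part in it was not tested. In +/+ motoneurons all 7 neuronal markers were lower in axons, while 4 of 9 markers of astrocytes or radial glia and 3 of 8 of fibroblasts or meningeal cells were higher and 0 of either list lower. Of 5 endothelial markers tested, 2 were higher and 2 were lower. Of 8 oligodendroglia or Schwann cell markers tested, 1 was higher and 0 were lower, and of 8 microglia markers 0 passed. In axonal libraries, the oligodendroglia or Schwann cell markers summed to 275 to 2093 CPM and the microglia markers to 0.785 to 289 CPM. Fibroblast or meningeal markers summed to 111 to 1373 CPM in somatodendritic and 305 to 3961 CPM in axonal libraries, and endothelial ones to 5.67 to 31.5 CPM and 48.3 to 255 CPM.

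**Figure D2:**
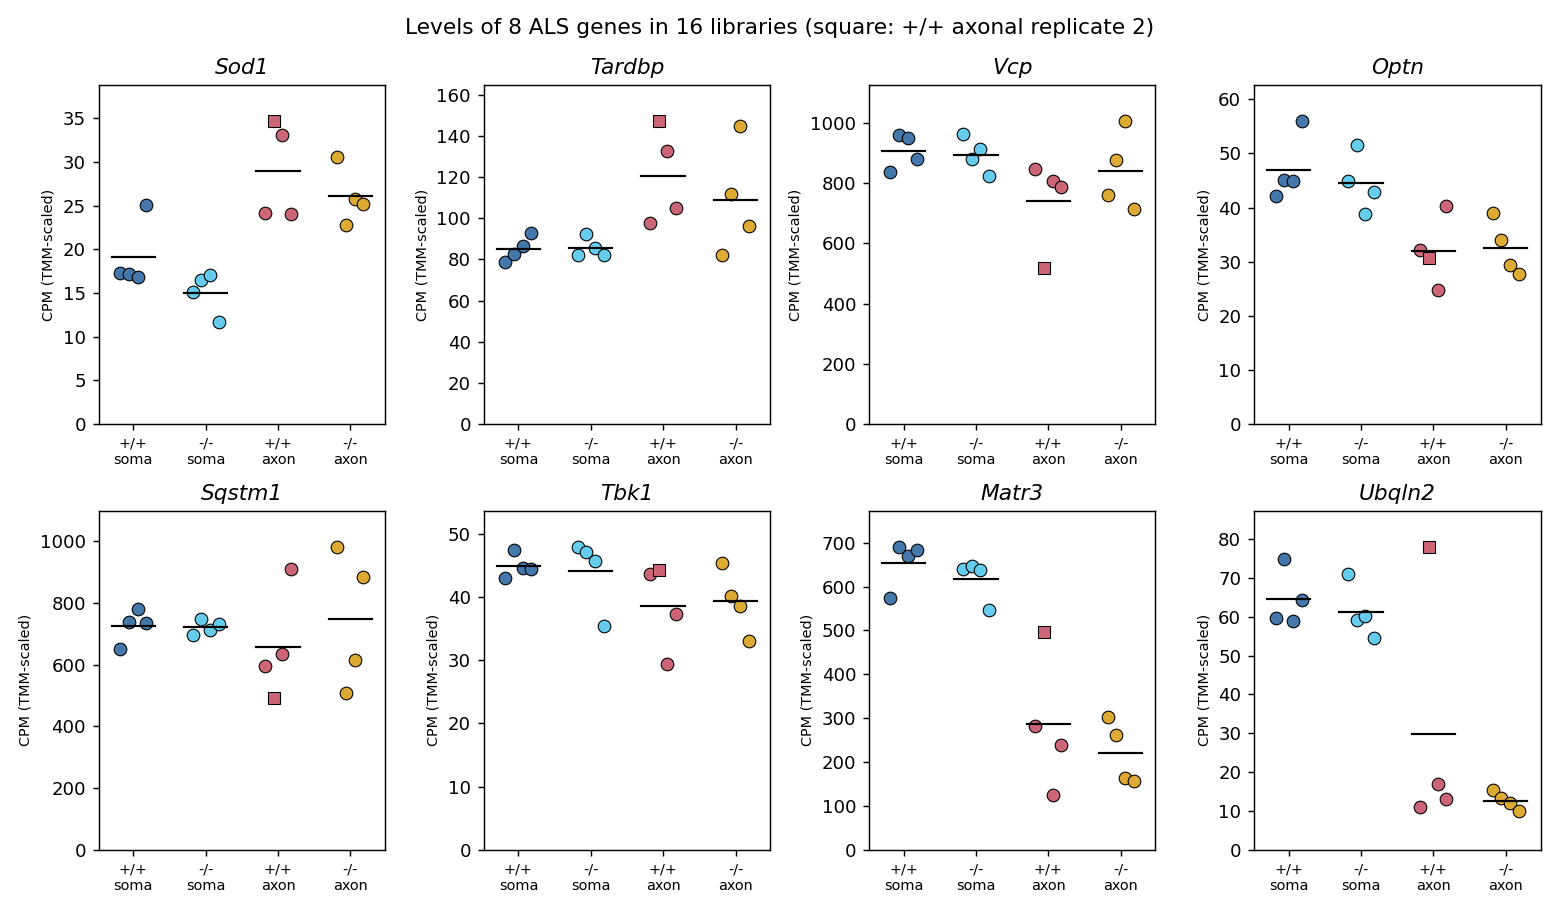
Levels of the 8 genes (y axis, CPM scaled by TMM factors, starting at 0) in the 4 groups, where each point is a library, the bar is the group mean, and a square marks +/+ axonal replicate 2. The axonal libraries of Matr3 lie below all somatodendritic ones, and for Ubqln2 the square, at 77.99 CPM, stands among the somatodendritic libraries while the 7 other axonal libraries lie between 9.88 and 16.99 CPM.

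*Sod1* was the member with the highest axonal enrichment in both genotypes. Its levels were 17.3, 17.2, 16.9 and 25.1 CPM in +/+ somatodendritic replicates 1 to 4 and 24.2, 34.7, 33.1 and 24.0 CPM in the axonal ones. The groups overlapped only because somatodendritic replicate 4 exceeded the lowest axonal libraries. The log2 fold change was 0.60 (standard error 0.19, adjusted p = 0.0145 from edgeR), or 1.52-fold. In Hnrnpr-/- motoneurons, *Sod1* had 15.1, 16.5, 17.01 and 11.6 CPM in somatodendritic and 30.6, 22.8, 25.8 and 25.2 CPM in axonal libraries. These groups did not overlap, and the log2 fold change was 0.80 (standard error 0.19, adjusted p = 0.00321). Leaving out any 1 library kept both calls.

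*Tardbp* had 78.6, 82.8, 86.3 and 92.8 CPM in +/+ somatodendritic replicates 1 to 4 and 97.8, 147, 133 and 105 CPM in the axonal ones. The groups did not overlap, and the axonal excess was 0.50 on the log2 scale (standard error 0.17, edgeR adjusted p = 0.0226). Without +/+ axonal replicate 2, the highest of these libraries, the log2 fold change was 0.39 and the adjusted p 0.0713. In Hnrnpr-/- motoneurons the levels were 82.3, 92.4, 85.3 and 82.2 CPM in somatodendritic and 82.3, 112, 145 and 96.0 CPM in axonal libraries. Axonal replicate 1 lay within the somatodendritic range, and the axonal excess of 0.35 on the log2 scale (standard error 0.17, edgeR adjusted p = 0.104) did not pass. It was 0.45 (adjusted p = 0.0335) without this library, and 0.46 (adjusted p = 0.0353) without TMM factors.

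*Matr3* was lower in axons in both genotypes. Its +/+ levels were 574, 690, 669 and 683 CPM in somatodendritic and 281, 497, 126 and 240 CPM in axonal replicates 1 to 4. All axonal libraries lay below all somatodendritic ones, although they differed widely among themselves. The log2 fold change was -1.19 (standard error 0.32, adjusted p = 0.00511 from edgeR), and it was -1.60 (adjusted p = 0.000424) without +/+ axonal replicate 2. The Hnrnpr-/- somatodendritic libraries had 639, 648, 638 and 547 CPM and the axonal ones 302, 262, 165 and 157 CPM. They did not overlap either, and the log2 ratio was -1.48 (standard error 0.32, edgeR adjusted p = 0.00153). *Tardbp* and *Matr3*, the members that encode nuclear RNA-binding proteins, thus lay on opposite sides of 0 in +/+ motoneurons.

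*Ubqln2* showed the lowest axonal level relative to somatodendritic RNA of the 8 genes in Hnrnpr-/- motoneurons. There, it had 71.02, 59.1, 60.2 and 54.6 CPM in somatodendritic and 15.5, 13.3, 11.9 and 9.88 CPM in axonal replicates 1 to 4. The log2 fold change was -2.27 (standard error 0.49, adjusted p = 0.00149 from edgeR), or 0.207 of the somatodendritic level. In +/+ motoneurons, *Ubqln2* had 59.7, 74.9, 59.0 and 64.3 CPM in somatodendritic and 11.03, 77.99, 16.99 and 13 CPM in axonal libraries. A single library, axonal replicate 2, was as high as the somatodendritic ones, and the log2 fold change was -1.11 (standard error 0.47) with an adjusted p of 0.0541. Without it, the log2 fold change was -2.24 (standard error 0.20, adjusted p = 1.71e-05), and with limma's quality weights, which gave this library the lowest weight of 16 (0.194), it was -2.17 (adjusted p = 9.57e-06). The same library had the highest *Matr3*, *Sod1*, *Tardbp* and nuclear RNA levels and the lowest *Vcp* and *Sqstm1* levels of the 8 axonal libraries.

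**Figure D3:**
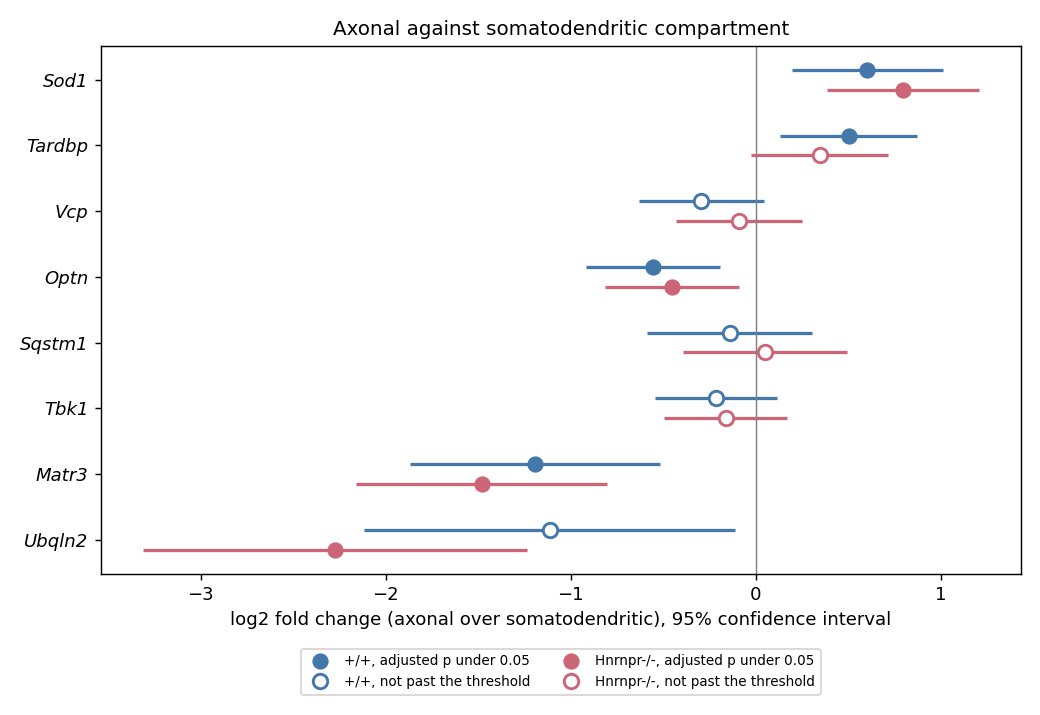
Log2 fold changes of axonal over somatodendritic RNA (x axis) for the 8 genes in +/+ (blue) and Hnrnpr-/- (red) motoneurons, with 95% confidence intervals and filled points for an adjusted p under 0.05. Sod1 lies to the right of 0 and Matr3 and Optn to the left in both genotypes, and Ubqln2 has the widest intervals (-2.12 to -0.11 in +/+).

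*Optn*, which encodes an autophagy receptor, was lower in axons by a smaller amount. Its +/+ levels were 42.2, 45.1, 44.9 and 56.0 CPM in somatodendritic and 32.1, 30.8, 24.7 and 40.2 CPM in axonal libraries, without overlap. The log2 fold change was -0.56 (standard error 0.17, adjusted p = 0.0116 from edgeR), but the call was lost without somatodendritic replicate 4 (-0.42, adjusted p = 0.062), without axonal replicate 3 (-0.41, adjusted p = 0.0587) and without TMM factors (-0.41, adjusted p = 0.0536). In Hnrnpr-/- motoneurons, the levels were 44.8, 51.6, 38.8 and 42.8 CPM and 38.97, 34.1, 29.4 and 27.7 CPM, which overlapped at the margin. There, the log2 fold change of -0.45 (adjusted p = 0.0344) fell short of the threshold in 4 other settings, with adjusted p from 0.0545 to 0.113, and in 7 of the fits without 1 library. Those libraries were +/+ somatodendritic replicates 1, 2 and 3, Hnrnpr-/- somatodendritic replicates 1 and 2 and Hnrnpr-/- axonal replicates 3 and 4, with log2 fold changes from -0.42 to -0.34 and adjusted p up to 0.138. The +/+ libraries among them are not part of this comparison. They enter it only through the filter, scaling and dispersion that all libraries share.

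The 3 other members did not pass in either genotype. *Vcp* had 836 to 959 CPM in +/+ somatodendritic libraries and 845, 519, 805 and 786 CPM in axonal ones, with a log2 fold change of -0.29 (95% confidence interval -0.63 to 0.05). Without axonal replicate 2 it was -0.16. The p62 gene *Sqstm1* had 651 to 781 CPM in somatodendritic and 598, 492, 634 and 911 CPM in axonal +/+ libraries, on both sides of the somatodendritic range (log2 fold change -0.14, interval -0.59 to 0.30), which was -0.03 without axonal replicate 2 and -0.29 without replicate 4. *Tbk1* had 42.9 to 47.4 CPM and 43.6, 44.3, 29.3 and 37.4 CPM, a log2 fold change of -0.22 (interval -0.55 to 0.12), and -0.06 without axonal replicate 3. With hnRNP R absent, their log2 fold changes were -0.09, 0.05 and -0.16, in the order given.

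Next, levels were compared between Hnrnpr-/- and +/+ motoneurons within each compartment, to ask whether loss of hnRNP R alters the transcripts of ALS genes. None of the 8 members passed an adjusted p of 0.05 in edgeR in axons or in the somatodendritic compartment, and 0 passed with limma or DESeq2, which gave no adjusted p for *Ubqln2*. The background is small, with 0.01% of all genes (2 genes) called in axons and 0.00501% (1 gene, *Hnrnpr*) in the somatodendritic compartment. At an unadjusted p under 0.05, 1 member passed in axons and 0 in the somatodendritic compartment, against 3.88% and 0.601% of all genes. Both shares are below what this threshold gives by chance alone. The dispersion of a gene is shared by all 16 libraries, so somatodendritic standard errors and intervals also reflect the axonal spread. When the fit held the somatodendritic libraries alone, 0 members passed. The standard error of *Sqstm1* was then 0.088, against 0.203 from all libraries without TMM factors. The part of this sharing in the low somatodendritic share was not tested. In the somatodendritic compartment the log2 fold changes ranged from -0.34 (*Sod1*) to 0.01 (*Tardbp*). Outside *Ubqln2*, no bound of a 95% confidence interval exceeded 1.03 on the log2 scale in either compartment. The neuronal marker sums ranged from 708 to 3019 CPM within +/+ axonal and from 430 to 4837 CPM within Hnrnpr-/- axonal libraries. The part of this variation in the axonal genotype comparison was not tested.

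The member that passed without adjustment was *Ubqln2* in axons, where the log2 fold change was -1.23 (95% confidence interval -2.24 to -0.23, unadjusted p = 0.0197, adjusted p = 1 from edgeR). Its levels in +/+ and Hnrnpr-/- axons overlapped apart from +/+ replicate 2, and without that library the log2 fold change was -0.11 (standard error 0.18). *Matr3* depended on the same library, as its axonal log2 fold change was -0.37 (interval -1.03 to 0.30) with this library and 0.04 without it. For *Sod1* the axonal log2 fold change was -0.15 (interval -0.56 to 0.25), and for *Tardbp* -0.15 (interval -0.52 to 0.22), and without +/+ axonal replicate 2 they were -0.05 and -0.04. For *Optn* and *Tbk1* it was 0.03 and 0.02, and 0.01 and 0.10 without this library. *Vcp* and *Sqstm1* had log2 fold changes of 0.18 each, and 0.05 and 0.07 without +/+ axonal replicate 2. The largest somatodendritic difference, that of *Sod1*, was 19.1 ± 4.02 CPM in +/+ against 15.04 ± 2.42 CPM in Hnrnpr-/- libraries (SD, n = 4), with an interval from -0.75 to 0.06 on the log2 scale. Without +/+ somatodendritic replicate 4, its highest library, the log2 fold change moved from -0.34 to -0.17.

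**Figure D4:**
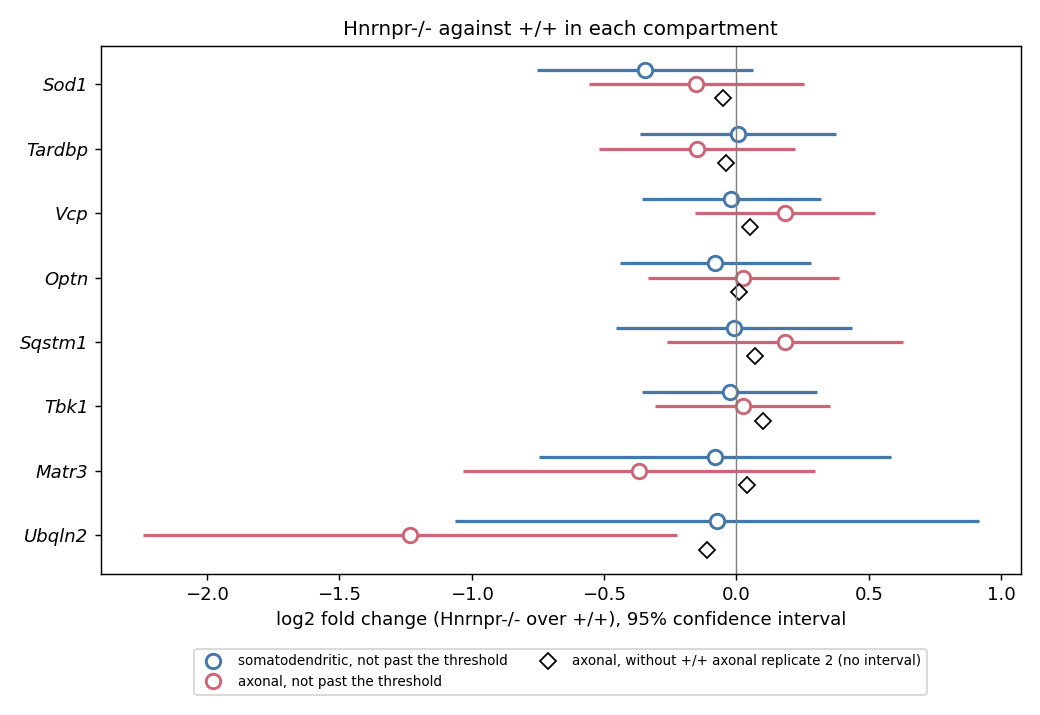
Log2 fold changes of Hnrnpr-/- over +/+ (x axis) for the 8 genes in the somatodendritic (blue) and axonal (red) compartment with 95% confidence intervals, and in axons without +/+ axonal replicate 2 (diamonds, no interval). No point passed an adjusted p of 0.05, and the diamond of Ubqln2 lies at -0.11 where the axonal value from all libraries is -1.23.

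The genotype effect itself was then compared between the compartments. The difference passed an adjusted p of 0.05 in edgeR for 0 of the 8 members and for 0% of all genes, with 0 members and 1.33% of all genes at an unadjusted p under 0.05. DESeq2 called 1 gene with default settings, which is not a member. *Ubqln2* had the largest difference among the members, -1.16 on the log2 scale (interval -2.57 to 0.25), and -0.04 without +/+ axonal replicate 2. Thus, although *Ubqln2* passed the compartment comparison in Hnrnpr-/- and not in +/+ motoneurons, the difference between the genotypes did not pass (unadjusted p = 0.0992 from edgeR).

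The spread itself was wider in axons for most members. The standard deviation of log2 CPM in +/+ libraries was 0.06 for *Tbk1*, 0.11 for *Sqstm1* and 0.13 for *Matr3* in the somatodendritic compartment and 0.28, 0.37 and 0.82 in axons. For *Ubqln2* it was 0.16 and 1.29 in +/+ and 0.16 and 0.27 in Hnrnpr-/- libraries. Without +/+ axonal replicate 2, the +/+ axonal value was 0.31 for *Ubqln2*, 0.61 for *Matr3* and 0.05 for *Vcp*, whose value from all 4 libraries was 0.33, against 0.09 in the somatodendritic compartment. The median over all genes rose from 0.24 to 0.54 in +/+ and from 0.28 to 0.48 in Hnrnpr-/- libraries, and the +/+ axonal median was 0.45 without replicate 2. *Sod1* had 0.28 in both compartments of +/+ motoneurons. In Hnrnpr-/- motoneurons the axonal value was the smaller one for *Sod1* (0.25 somatodendritic, 0.18 axonal) and *Tbk1* (0.20 and 0.19).

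Close relatives and partners of the members were compared between the compartments in the same fit. *Ccs*, the copper chaperone that loads SOD1, was higher in +/+ axons with 59.8 ± 11.7 CPM against 17.6 ± 1.64 CPM (SD, n = 4), a log2 difference of 1.76 (adjusted p = 3.03e-05 from edgeR). The extracellular *Sod3* was higher as well (log2 fold change 3.28), whereas the mitochondrial *Sod2* had 0.05 (adjusted p = 0.725). The ubiquilin genes *Ubqln1* and *Ubqln4* were lower in axons, with log2 fold changes of -0.64 and -0.81 in +/+ and -0.64 and -0.59 in Hnrnpr-/- motoneurons. *Nbr1*, an autophagy receptor related to p62, was lower (-0.95, adjusted p = 0.00282), where *Sqstm1* was not called. *Nploc4*, which forms a VCP cofactor with UFD1, was lower in +/+ axons (-0.47, adjusted p = 0.0188) and was not called in Hnrnpr-/- motoneurons (-0.29), while *Ufd1* had -0.04 and 0.08. The TBK1 homolog *Ikbke* was low in +/+ motoneurons (1.10 ± 0.428 CPM somatodendritic, 3.41 ± 2.18 CPM axonal) and was not called, and *Ikbkg*, the regulatory subunit of the related IKK complex, had a log2 fold change of -0.22 (adjusted p = 0.468).

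Of 35 other genes linked to ALS, 10 were higher and 18 were lower in +/+ axons, and 7 did not pass. The share called was 80%, beside 57.5% of all genes tested. Their median log2 fold change was -0.42, beside 0.07 for all genes tested. The largest increases were those of *Anxa11*, encoding an annexin that tethers RNA granules to lysosomes, from 0.390 ± 0.169 to 4.65 ± 3.85 CPM (log2 fold change 3.54), and of the actin-binding *Pfn1*, from 76.3 ± 8.94 to 482 ± 244 CPM (log2 fold change 2.66, adjusted p = 4.23e-05 from edgeR). The largest decreases were those of *Unc13a*, which primes synaptic vesicles, from 151 ± 19.8 to 12.9 ± 4.33 CPM (log2 fold change -3.55), and of the kinesin heavy chain gene *Kif5a*, from 1002 ± 85.2 to 126 ± 67.96 CPM (log2 fold change -2.99). Each of these differences is larger than that of any of the 8 members in +/+ motoneurons.

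Of 26 VCP cofactors, 4 were higher and 8 lower in +/+ axons and 14 did not pass (median -0.16). The share called was 46.2%, beside 57.5% of all genes, and the number called ranged from 8 to 15 over the 27 alternative settings. *Selenos*, a membrane anchor for VCP at the endoplasmic reticulum, rose from 37.0 ± 5.44 to 111 ± 40.4 CPM (SD, n = 4), and *Ubxn1* from 44.2 ± 3.19 to 102 ± 23.5 CPM. The ubiquitin ligase gene *Ube4b* fell from 256 ± 20.6 to 91.2 ± 16.8 CPM and the deubiquitinase gene *Vcpip1* from 90.3 ± 9.35 to 47.0 ± 15.6 CPM. *Vcp* was not called beside these changes. In the 39 genes of autophagy and the TBK1 pathway, 7 were higher, 19 lower and 13 not called (median -0.38), a share of 66.7% called. The number called ranged from 21 to 27 over the alternative settings. *Wipi1*, which binds the forming autophagosome, had a log2 fold change of 2.75 and *Gabarap*, one of the proteins to which receptors such as p62 and optineurin bind, of 0.90. The lipid transfer gene *Atg2b* and the kinase gene *Ulk2* had -2.31 and -2.02. The counts for Hnrnpr-/- motoneurons were 9 higher and 18 lower for the other ALS genes, 4 and 9 for the VCP cofactors and 7 and 19 for the autophagy genes. The shares called were 77.1%, 50% and 66.7%, beside 54.2% of all genes. Each of the 12 genes named in these 3 lists passed again in the same direction.

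**Figure D5:**
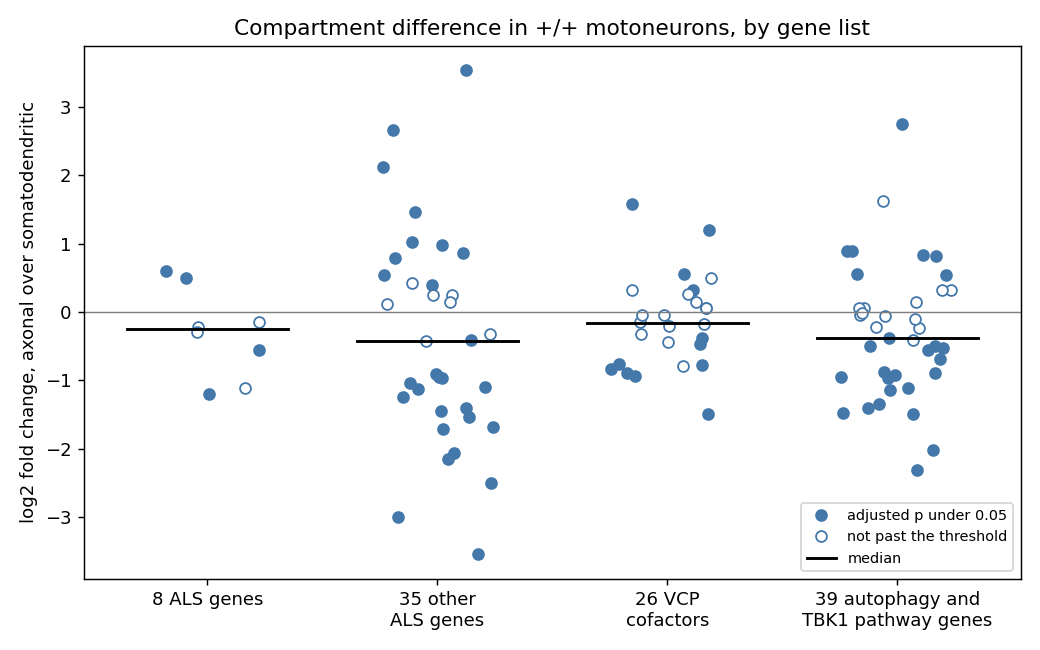
Log2 fold changes of axonal over somatodendritic RNA in +/+ motoneurons (y axis) for the 8 genes and the 3 related lists (x axis), where each point is a gene, filled for an adjusted p under 0.05, and the bar is the median. The medians are -0.26, -0.42, -0.16 and -0.38 from left to right, and the 8 genes lie between -1.19 and 0.60.

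Between the genotypes, 0 genes of these 3 lists passed an adjusted p of 0.05 in edgeR in either compartment. At an unadjusted p under 0.05, 2 autophagy genes passed in axons and 0 genes of the lists in the somatodendritic compartment. This is 5.13% of the 39 autophagy genes, near the 3.88% of all genes. The genes were *Atg14* (log2 fold change -0.36) and *Pik3c3* (0.35), named after their values were seen.

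Finally, each member was matched with the genes whose log2 CPM followed it most closely over the 16 libraries, by the root mean square difference after centering. For *Vcp* the nearest of 11226 genes was its copy *Vcp-rs*, which lay at 0.02 and with which it shares reads, followed by *Axin1* at 0.09. *Tardbp* was nearest to *Hnrnpk* and *Fubp1* (0.10 each), and *Sod1* to *Dynlrb1* and *Naa20* (0.14 and 0.15). *Optn* lay nearest to *Mfap1a* and *Atad1* (both 0.12), *Sqstm1* to *Lgals8* and *Leprotl1* (0.12 and 0.16), and *Tbk1* to *Zfp954* and *Taf1b* (0.10 and 0.12). *Matr3* was nearest to *Zfp563* and *Trim23* (0.15 and 0.17), and *Ubqln2* had no neighbor nearer than *Dzip3* and *Adnp* (0.31 and 0.33). The median distance to all genes was between 0.57 and 1.19. Among the members, *Optn* and *Tbk1* were most alike (0.24), *Sod1* and *Tardbp* lay at 0.31, and *Sod1* and *Ubqln2* were farthest apart (1.44). Without +/+ axonal replicate 2, *Vcp-rs* was again nearest to *Vcp* (0.02), *Naa20* and *Dynlrb1* to *Sod1*, and *Lgals8* and *Leprotl1* to *Sqstm1*, and *Mfap1a* was second for *Optn*. The other named neighbors were replaced, those of *Ubqln2* by *Nt5dc3* and *Pex26* (0.21 and 0.22). *Vcp* and *Tbk1* were then the most alike members (0.17), and *Sod1* and *Ubqln2* were still the farthest apart (1.48).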

How the data were processed

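The authors deposited expected counts, fractional and not normalized, for each gene. Per the study's methods, reads were trimmed with Cutadapt, aligned to GRCm39 (RefSeq) with STAR 2.7.2b and counted on exons with featureCounts 1.6.4 as reversely stranded, dividing reads that fit several places or genes. The submitters' notes also name DESeq2 1.24.0. Groups come from the sample labels.

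Counts were rounded. In R 4.3.3, edgeR 4.0.16 filtered genes by expression, scaled libraries by TMM factors and fitted 1 quasi-likelihood model with a mean per group to all 16 libraries. Tests are two-sided, with Benjamini-Hochberg adjustment over 19964 genes and a threshold of 0.05. Confidence intervals are at 95%. Depth was 22024923 to 34864151 counts per library. Without molecular identifiers, counting precision does not cover PCR copies. Alternatives used limma 3.58.1, DESeq2 1.42.0, other scalings and filters, unrounded counts, only the groups compared, a replicate block, and each library left out. After the data were seen, sums of members with their pseudogenes were added, as were the order, spread and similarity of members without +/+ axonal replicate 2. Coding sequences (GENCODE) were searched with BLAST+ 2.17.0, and the windows of 100 bases have the read length before trimming that the study's methods give. The model was tested on simulated data.

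Members and lists were chosen with earlier results of these data known. Named genes are the members, their relatives and partners, and the 2 largest called changes per direction and list between +/+ compartments. Also named are genes called between genotypes, the 2 most similar genes with at least 10 CPM, and genes sharing reads or loci. Same-numbered libraries of the Hnrnpr-/- compartments were read as pairs because they deviated together (correlations 0.15 to 0.59 over genes). The labels do not name such pairs, and the main tests have no term for them in either genotype. Only the replicate block among the alternatives has one, and it changed no call of a member in Hnrnpr-/- compartments. In +/+ motoneurons, 1 of 4 pairs was at 0.08, and the pairs across genotypes ranged from -0.01 to 0.85, so that these were not taken as pairs.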

Additional observations from a re-analysis of the deposited data

Results flagged for a closer look

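In 3 of 32 groups tested, 4 libraries of a member in each, 1 library stood apart from the other 3 by Dixon's criterion (gap to the nearest library over the range), which chance alone gives in about 1 in 20 groups. *Ubqln2* had 77.99 CPM in +/+ axonal replicate 2, where the other 3 libraries had 11.03 to 16.99 CPM. *Sod1* had 25.11 CPM in +/+ somatodendritic replicate 4, where the others had 16.9 to 17.3 CPM. *Matr3* had 547.4 CPM in Hnrnpr-/- somatodendritic replicate 4, where the others had 638 to 648 CPM. Leaving out the library concerned changed a call of the same gene for *Ubqln2*, in the comparison of +/+ compartments, and for neither *Sod1* nor *Matr3*.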

How the results depend on the processing

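The number of members past the threshold stayed within 1.5 times of the reported one in each of the 27 alternatives (3 to 5 where 4 is reported in each compartment comparison, 0 where 0 is reported), of which 26 give the difference between the compartments. The direction of every called member held in each alternative that gave it a value. Of 1062 log2 fold changes recomputed, 997 kept direction and side of the threshold, 15 lost a call, 5 gained one and 45 changed sign, the latter all of uncalled values of at most 0.37. DESeq2 gave no adjusted p for *Ubqln2*, for which it then has no call. Without TMM factors the median of all genes between +/+ compartments moved from 0.07 to 0.22, and *Sqstm1* turned to 0, *Vcp* to 0.03 in Hnrnpr-/- compartments, and *Vcp* and *Sqstm1* to 0.01 and 0.02 between somatodendritic genotypes. With limma's weights *Sqstm1* turned to -0.10 in Hnrnpr-/- compartments, *Tardbp*, *Optn* and *Tbk1* to 0, -0.04 and -0.07 between axonal genotypes, and the difference for *Tbk1* to -0.04. Between somatodendritic genotypes, *Tardbp* turned to 0 with RLE factors and both DESeq2 settings, and *Sqstm1* to 0 without a filter, with at least 10 counts, and with only the groups compared. The cause of these changes near 0 was not tested.

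With a replicate block, *Sqstm1* turned to 0 in Hnrnpr-/- compartments and *Ubqln2* gained a call in +/+ compartments (-1.65, adjusted p = 0.00443 from edgeR), where numbers are not taken as pairs. In both genotypes, each somatodendritic library correlated best with the axonal library of its own number, in +/+ replicate 4 by only 0.077 to 0.074. Whether each axonal library did so with the somatodendritic ones was not checked. The block changed no other call of a member.

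Leaving out each library in turn moved these uncalled log2 fold changes across 0. Between axonal genotypes, *Matr3* ranged from -0.60 to 0.04, *Optn* from -0.07 to 0.16 and *Tbk1* from -0.08 to 0.10. Between somatodendritic genotypes, *Tardbp* ranged from -0.02 to 0.07, *Vcp* from -0.05 to 0.03, *Optn* from -0.14 to 0.03, *Sqstm1* from -0.04 to 0.04, *Tbk1* from -0.06 to 0.06 and *Ubqln2* from -0.15 to 0.02. *Sqstm1* ranged from -0.12 to 0.19 in Hnrnpr-/- compartments. The difference ranged from -0.54 to 0.12 for *Matr3*, from 0 to 0.23 for *Optn* and from -0.06 to 0.13 for *Tbk1*. The cause of these changes was not tested.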
